A study of Mus musculus with 4 samples.

Results

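Scavenger receptors and receptors for dead cells were followed through the myeloid cells of YUMMER1.7 tumors. The set holds 7 of the 32285 genes counted, namely Mrc1, Cd163, Msr1, Cd36, Stab1, Axl and Mertk, which were chosen by name for this role and matched by symbol. Earlier results of these data were known when they were chosen. Their UMIs (unique molecular identifiers, 1 per captured transcript) were read in 4 gates of cells that were set with other genes. C1q-positive macrophages held a UMI of Lyz2 and of C1qb, monocytes a UMI of Lyz2 and of Ly6c2, mature dendritic cells (DC) a UMI of Ccr7 and of Fscn1, and type 1 conventional DC (cDC1) a UMI of Xcr1 or Clec9a. A cell had to meet exactly 1 of these gates.

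Single-cell RNA-Seq was carried out on YUMMER1.7 melanomas, a mouse melanoma line of male origin, grown in WT male C57BL/6J mice of 7 to 8 weeks. Mice received isotype control antibody, anti–PD-1, anti-MIF or the combination (anti–PD-1/anti-MIF), in a long treatment cohort (2 weeks, 4 doses, tumors taken at day 21) and a short treatment cohort (1 week, 2 doses, day 14). Sorted CD45+ and CD45- cells were mixed again at 80% and 20%, so the abundance of immune cells was set by the sort. The arms of a cohort carried hashtag antibodies and shared 1 library, which makes each arm of each cohort 1 sample in which the mice cannot be told apart, and cohort, library and day of harvest cannot be told apart either. P-values given here therefore rest on arm samples that serve as replicates of each other, and every interval of a single arm covers counting error only. Monocytes had 8 such samples, macrophages 6, the cDC1 gate 5 and mature DC 3. Contrasts of gates took the arm as a block, so their p-values measure how far a difference between gates varied over arms. Gene UMIs totalled 23702910 over the 2516 barcodes of the long cohort and 31799441 over the 4987 of the short cohort. After removal of hashtag doublets and filtering, 1671 and 3119 cells of the 4 labelled arms remained, and 20 barcodes occurred in both cohorts.

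Macrophages clear dying cells and spent molecules through several families of surface receptors. Mrc1 (the mannose receptor, CD206) and Stab1 (stabilin 1) take glycoproteins and altered extracellular proteins from the cell's surroundings, Msr1 is the class A scavenger receptor for modified lipoproteins, Cd36 is a class B receptor for oxidized lipids and long-chain fatty acids, and Cd163 takes up hemoglobin bound to haptoglobin. Axl and Mertk are receptor tyrosine kinases that bind phosphatidylserine on dying cells through bridging proteins such as Gas6. In tumors such receptors are widely used to mark macrophages that have left the monocyte state.

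The promoters of Mrc1, Stab1, Axl and Mertk, the 4 receptors that were higher in macrophages than in monocytes, are shown because these genes share that direction. Each window runs from 250 bases before to 50 bases after the transcription start of the RefSeq entry (GRCm38.p6), reads 5′ to 3′ on the strand of the gene, and has in capitals each match to GAGGAA, the core letters bound by the myeloid factor PU.1, or to its reverse complement TTCCTC. The windows are chr2:14229164-14229463 on the plus strand for Mrc1, chr14:31168592-31168891 on the minus strand for Stab1, chr7:25788684-25788983 on the minus strand for Axl and chr2:128698665-128698964 on the plus strand for Mertk.
Mrc1: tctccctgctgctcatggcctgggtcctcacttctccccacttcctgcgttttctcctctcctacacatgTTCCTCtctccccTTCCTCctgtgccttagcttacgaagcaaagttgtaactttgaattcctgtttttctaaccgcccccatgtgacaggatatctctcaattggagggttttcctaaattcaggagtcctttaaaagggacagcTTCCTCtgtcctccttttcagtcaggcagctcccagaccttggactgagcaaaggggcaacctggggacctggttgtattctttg
Stab1: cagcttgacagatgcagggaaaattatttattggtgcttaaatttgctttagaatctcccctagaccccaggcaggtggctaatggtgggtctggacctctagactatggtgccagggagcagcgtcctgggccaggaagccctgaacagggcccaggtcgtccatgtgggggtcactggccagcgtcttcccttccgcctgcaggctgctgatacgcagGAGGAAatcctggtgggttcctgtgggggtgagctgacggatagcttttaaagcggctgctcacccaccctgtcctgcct
Axl: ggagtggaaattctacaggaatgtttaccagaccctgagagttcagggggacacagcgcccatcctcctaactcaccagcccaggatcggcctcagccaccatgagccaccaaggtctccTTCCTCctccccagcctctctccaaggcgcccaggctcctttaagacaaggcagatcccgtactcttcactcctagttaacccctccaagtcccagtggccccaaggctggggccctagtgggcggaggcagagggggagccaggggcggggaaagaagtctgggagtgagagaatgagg
Mertk: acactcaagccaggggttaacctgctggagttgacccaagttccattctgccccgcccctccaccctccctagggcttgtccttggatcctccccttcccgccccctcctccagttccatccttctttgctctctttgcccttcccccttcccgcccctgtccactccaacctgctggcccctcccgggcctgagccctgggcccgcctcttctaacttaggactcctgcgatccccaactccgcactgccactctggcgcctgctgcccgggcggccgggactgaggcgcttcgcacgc
The Mrc1 window held 3 matches, which began at -180, -167 and -35 from the start, the Stab1 window held 1 at -30 and the Axl window 1 at -130. The windows of Mertk, Cd36 and Cd163 held 0. Of 32851 promoters of the same length, 28.3% held at least 1 match, so that a single match is common. TGCTGA, letters shared by sites of the MAF factors, occurred once in Stab1 and once in Cd36 and in 19.5% of all promoters. Neither TGANTCA (the AP-1 site, 7.81% of promoters) nor TTGCNNAA (the C/EBP site, 10.8%) occurred in the windows of the 6 members that had an entry. All 4 sets of letters were searched on both strands and no match of 1 set overlapped a match of another. The entries held no promoter for Msr1. The genes lie, on GRCm38 in GENCODE vM21, at chr2:14229392-14332057 (Mrc1), chr6:124304656-124330527 (Cd163), chr8:39581685-39642673 (Msr1), chr5:17781690-17888801 (Cd36), chr14:31139013-31168641 (Stab1), chr7:25757273-25788705 (Axl) and chr2:128698956-128802894 (Mertk), and all are protein coding.

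The gates were checked against marker genes that did not set them, though not all of these are independent of the gates. The macrophage list holds C1qa and C1qc, which go with the C1qb that set the gate. The monocyte list holds Ly6c1, a gene of the same family as Ly6c2. Part of the difference in these sums was thus set by the gates. Among C1q-positive macrophages (457 cells) the 8 macrophage markers summed to 12097 CPM (the UMIs of a gene scaled to the same total of UMIs in every sum of cells), with Apoe the most abundant at 3626 CPM, against 2080 CPM in monocytes. The 7 monocyte markers summed to 5876 CPM in monocytes (1662 cells) and 492 CPM in macrophages, where Ccr2 was the most abundant and Hp stood at 3.72 CPM. Mature DC (134 cells) carried their 8 markers at 14553 CPM. The cDC1 gate (97 cells) did not hold cDC1 alone. Its 8 cDC1 markers summed to 3342 CPM and the 5 markers of plasmacytoid DC to 3491 CPM, with Bst2 the most abundant of these at 1426 CPM and Siglech, which defines plasmacytoid DC, at 678 CPM. The contrasts of macrophages with this gate are therefore also given after removal of cells with Siglech or a lymphocyte gene, which left 60 cells. Median depth in the long and short cohort was 12269 and 5216 UMIs in macrophages, 9656 and 6691 in monocytes, 9011 and 7268 in mature DC and 8710.5 and 8081 in the cDC1 gate.

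Mrc1 and Mertk were many times higher in C1q-positive macrophages than in the other gates, Stab1 and Axl were higher there but also present in monocytes, Msr1 had overlapping levels in both, Cd36 was highest in the cDC1 gate, and Cd163 was nearly absent. In mature DC all but Axl were at or close to 0. Levels are in CPM of the gate, without a correction for transcript length, so that a gene is compared across cells and not with another gene. Sums of fewer than 10 cells were left out of the means and tests, which removed the macrophages of the long isotype arm (7 cells) and of the short anti–PD-1/anti-MIF arm (9 cells).

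**Figure D1:**
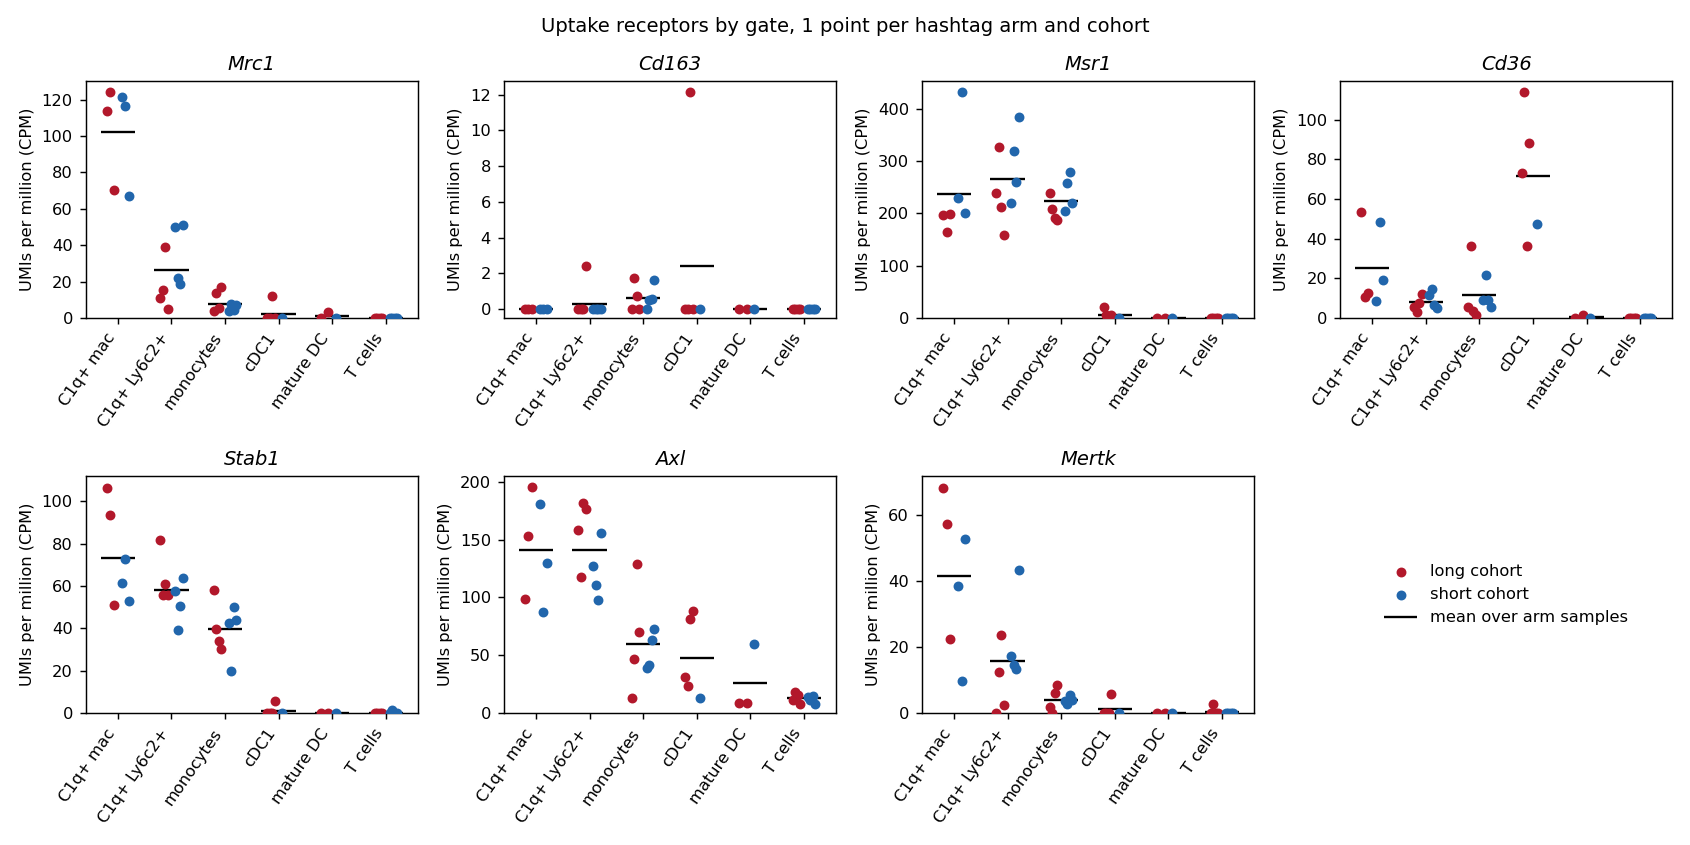
Level of each receptor (vertical axis, CPM) in C1q-positive macrophages, cells with both C1qb and Ly6c2, monocytes, cDC1, mature DC and T cells. Each point is 1 hashtag arm of the long (red) or short (blue) cohort with at least 10 cells in the gate and the bar is the mean of the points. The lowest macrophage sample for Mrc1 (67.1) lies above the highest monocyte sample (17.3), while the macrophage points of Msr1 (164 to 432) overlap the monocyte points (187 to 280) and reach beyond them at both ends.

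Mrc1 had the largest fitted difference of the set between macrophages and monocytes. The 6 macrophage samples ran from 67.1 to 124 CPM with a median of 115 (mean 102 ± 26.2, SD, n = 6), and the 8 monocyte samples from 3.75 to 17.3 CPM with a median of 6.34 (7.93 ± 5.01, n = 8). The groups did not overlap, and the lowest macrophage samples were the anti-MIF arm of the short cohort (67.1 CPM) and the anti–PD-1/anti-MIF arm of the long cohort (70.4 CPM). In a fit over all gates with the arm as a block, Mrc1 was higher in macrophages by a log2 fold change of 3.78 (SE 0.31, adjusted p = 3.68e-09, edgeR quasi-likelihood test with Benjamini-Hochberg adjustment), and higher in 6 of 6 arms. The size rests on leaving out the cells that met both gates. When each cell was counted in every gate it met, so that the sums shared cells, Mrc1 was at 65.0 CPM in macrophages and 13.7 in monocytes, with a log2 fold change of 1.90 (adjusted p = 8.33e-10, edgeR). Of 8736 genes tested in this contrast 20.3% were called, 8.68% as higher in macrophages. Among the 7 receptors 6 passed the filter on low counts and 4 of these were called, all as higher. The median log2 fold change of the 6 was 1.06, against -0.02 over all genes. Since the receptors were chosen with earlier results of these data known, this comparison with all genes is a description.

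Stab1, the other endocytic receptor of this group, had a smaller difference. Its macrophage samples ran from 51.2 to 106 CPM with a median of 67.2 (73.1 ± 22.6, n = 6), and its monocyte samples from 20.0 to 58.2 CPM with a median of 41.1 (39.9 ± 11.9, n = 8). Here the groups overlapped, since the monocytes of the long isotype arm (58.2 CPM) lay above the macrophages of the short anti-MIF and long anti–PD-1/anti-MIF arms. Within each of the 6 arms macrophages were nonetheless the higher of the pair, with a log2 fold change of 1.00 (SE 0.23, adjusted p = 0.00260, edgeR). With the short cohort alone the value was 0.78 and was not called (adjusted p = 0.0787).

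Mertk and Axl, receptors for Gas6, were both higher in macrophages, and by very different amounts. Mertk ran from 9.70 to 68.4 CPM with a median of 45.7 in macrophages (41.5 ± 22.3, n = 6) and from 0 to 8.63 CPM with a median of 3.97 in monocytes (4.10 ± 2.68, n = 8). These groups did not overlap, but the lowest macrophage sample, the short anti–PD-1 arm, rested on 2 UMIs. The log2 fold change was 3.02 (SE 0.39, adjusted p = 5.54e-06, edgeR), higher in 6 of 6 arms, and 1.60 with cells in every gate they met (31.2 against 8.28 CPM, adjusted p = 6.21e-07). Axl ran from 87.3 to 195 CPM with a median of 141 in macrophages (141 ± 43.5, n = 6) and from 13.1 to 128 CPM with a median of 55.2 in monocytes (59.4 ± 34.1, n = 8). The monocytes of the long anti-MIF arm (128 CPM) reached into the range of the macrophages. The difference was 1.13 on the log2 scale (SE 0.26, adjusted p = 0.00263, edgeR) and had the same direction in 6 of 6 arms, and in the long cohort alone it was 0.88 and not called (adjusted p = 0.0627).

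Msr1 did not separate monocytes from macrophages. Macrophage samples ran from 164 to 432 CPM with a median of 199.9 (237 ± 97.6, n = 6) and monocyte samples from 187 to 280 CPM with a median of 215 (224 ± 32.8, n = 8). The ranges overlapped, and the macrophages reached beyond the monocytes at both ends, with the long anti-MIF arm at 164 CPM and the short anti–PD-1 arm at 432 CPM. Macrophages were higher in 3 of 6 arms, and the fitted log2 fold change was 0.05 (SE 0.19, adjusted p = 0.904, edgeR), a direction that turned under several settings. Cd36 was low in both, from 8.59 to 53.2 CPM in macrophages with a median of 16.0 (25.5 ± 20.0, n = 6) and from 1.44 to 36.5 CPM in monocytes with a median of 7.32 (11.5 ± 11.7, n = 8). Its highest sample was the anti–PD-1 arm of the long cohort in both gates, at 53.2 CPM (7 UMIs) in macrophages and 36.5 CPM (21 UMIs) in monocytes. It was higher in macrophages in 5 of 6 arms and was not called (log2 fold change 0.83, SE 0.38, adjusted p = 0.132, edgeR).

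Cd163 had 13 UMIs in all 4790 cells, of which 7 were in monocytes and 4 in the cDC1 gate, and failed the filter in every test. Removal of cells with Siglech or a lymphocyte gene left 0 Cd163 UMIs in the 60 remaining cells of the cDC1 gate. No UMI was found in 457 macrophages, which allows a share of up to 0.656% of cells with a UMI and a level of up to 0.698 CPM.

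**Figure D2:**
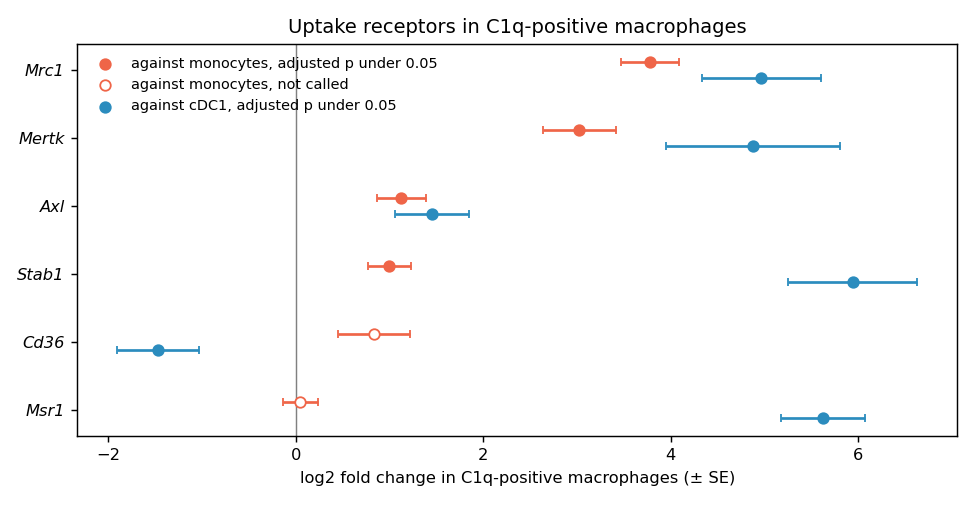
Log2 fold change (horizontal axis) of each receptor that passed the filter in C1q-positive macrophages against monocytes (orange) and against the cDC1 gate (blue), with bars of 1 SE. Filled points passed an adjusted p of 0.05. Mrc1 and Mertk lie above 3 against both, Msr1 lies at 0.05 against monocytes and at 5.63 against the cDC1 gate, and Cd36 is the only receptor below 0, at -1.47 against the cDC1 gate.

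The receptors tested were higher in macrophages than in dendritic cells, except for Cd36, which was lower than in the cDC1 gate. Against the cDC1 gate, 17.5% of genes were called, 9.20% as higher and 8.33% as lower in macrophages. Of the 6 receptors tested 5 were higher in macrophages and Cd36 was lower. Msr1, Stab1, Mrc1 and Mertk had only 4, 1, 3 and 1 UMIs in the cDC1 gate (adjusted p = 4.61e-09, 9.27e-07, 2.15e-06 and 0.000443, edgeR). As ratios of the pooled gates with counting intervals, Msr1 was 47.6 times as high (18.5 to 175), Mrc1 38.1 times (12.95 to 185), Stab1 82.5 times (14.7 to 3268) and Mertk 48.5 times (8.61 to 1924). After removal of the cells with Siglech or a lymphocyte gene the gate held 4, 1, 2 and 1 UMIs of Msr1, Stab1, Mrc1 and Mertk, and all 4 were still called as higher in macrophages (adjusted p = 1.35e-08, 1.90e-05, 8.32e-06 and 0.00216, edgeR). With cells in every gate they met the cDC1 gate held 103, 24, 14 and 12 UMIs of these genes, and the log2 fold changes were 2.42, 2.48, 2.99 and 2.23, all called. After thinning to 2000 UMIs a cell only Msr1 was still called (adjusted p = 0.00270), Stab1 and Mrc1 were not (0.122 and 0.168, edgeR), and Mertk failed the filter.

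Cd36 and Axl were the receptors that the cDC1 gate did carry. Cd36 stood in the cDC1 gate at 73.1 CPM in the isotype arm of the long cohort, 114 after anti–PD-1, 36.5 after anti-MIF and 88.1 after both antibodies, and at 47.2 in the anti–PD-1 arm of the short cohort (71.7 ± 31.2, n = 5). The 2 lowest of these overlapped the highest macrophage samples. The log2 fold change of macrophages against the gate was -1.47 (SE 0.44, adjusted p = 0.0183, edgeR). This call was lost without the anti-MIF (adjusted p = 0.0890) or the anti–PD-1/anti-MIF arm (0.112) of the long cohort or the isotype arm of the short cohort (0.0540) and after thinning to 2000 UMIs a cell (0.597), and in the short cohort alone, where the gate had 1 sample of 13 cells, the value was -0.10 (adjusted p = 0.975, edgeR). Markers of plasmacytoid DC in these 5 samples summed to 5282, 671, 4931, 1833 and 891 CPM in the same order, so that the arm with the most Cd36 had the least of them, while the short anti–PD-1 arm was low in both. Their part in the Cd36 level was not tested across arms. After removal of cells with Siglech or a lymphocyte gene, 60 cells kept 63 of the 64 Cd36 UMIs and all 47 Axl UMIs, and Cd36 reached 79.2 ± 33.3 CPM (n = 4) with a log2 fold change of -1.52 (adjusted p = 0.0266, edgeR). Among plasmacytoid DC outside the gate (50 cells) Cd36 had 2 UMIs, or 6.01 CPM.

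Axl in the cDC1 gate was 31.3, 24.0, 81.0 and 88.1 CPM in the long cohort (isotype, anti–PD-1, anti-MIF, both antibodies) and 13.5 CPM in the anti–PD-1 arm of the short cohort (47.6 ± 34.5, n = 5). The 2 arms with anti-MIF were the highest and the other 3 lay between 13.5 and 31.3 CPM, on 2 to 4 UMIs each. Macrophage markers in the gate summed to 1746 CPM in the anti-MIF arm of the long cohort, against 459, 180 and 282 CPM in its isotype, anti–PD-1 and combination arms and 209 CPM in the short anti–PD-1 arm, and their part in the Axl level was not tested. Macrophages were higher by 1.45 on the log2 scale (SE 0.39, adjusted p = 0.00911, edgeR), and after removal of the cells with Siglech or a lymphocyte gene by 1.16, which was not called (adjusted p = 0.0575).

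Mature DC had next to none of the receptors. Against them 40.5% of all genes were called and 22.4% were higher in macrophages, and all 6 receptors tested were among these, so the share of calls is read against a high background. Msr1 had 0 UMIs in 134 mature DC and was at least 73.4-fold higher in macrophages, and Mertk, also at 0, at least 18.7-fold (adjusted p = 2.70e-09 and 4.02e-05, edgeR). These bounds put mature DC at the 2.63 CPM that a count of 0 allows over the pooled gate. Stab1 had 1 UMI there (ratio 95.4, counting interval 17.0 to 3777) and Mrc1 and Cd36 had 2 UMIs each, with ratios of 66.0 (18.2 to 547) and 8.10 (2.15 to 68.4) and adjusted p-values of 1.01e-06 and 0.0114 (edgeR). The Cd36 call was lost without the anti–PD-1 arm of the long cohort (adjusted p = 0.0866). Axl was the exception. It was at 9.06 CPM in the long anti–PD-1 arm, 8.55 in the long anti-MIF arm and 59.7 in the short isotype arm (25.8 ± 29.4, n = 3), and was higher in macrophages by 3.02 on the log2 scale (SE 0.53, adjusted p = 4.63e-05, edgeR).

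Between the gates of dendritic cells only Cd36 was called, as higher in the cDC1 gate, with 29.7% of all genes called and 16.3% higher. It had 64 UMIs in 97 cells of the cDC1 gate and 2 UMIs in 134 mature DC, a ratio of 37.0 (counting interval 9.83 to 312), with a log2 fold change of 5.08 (SE 1.01, adjusted p = 0.000364, edgeR). Axl was at 1.57 and was not called (adjusted p = 0.0665), and under several settings it was. Monocytes exceeded mature DC in 3 of the 6 receptors tested, against 39.7% of genes called and 22.2% higher. These were Msr1 (at least 88.9-fold), Stab1 (ratio 40.4, 7.22 to 1600) and Axl (log2 fold change 1.90, adjusted p = 0.00657, edgeR). Without the long anti-MIF arm the Axl value was 0.39 and not called (adjusted p = 0.669). Mrc1, Cd36 and Mertk had adjusted p-values of 0.212, 0.0702 and 0.0506. Relative to mature DC the median of all genes lay between 0.12 and 0.15 on the log2 scale in these contrasts, a shift far below the differences given.

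The share of cells in which a receptor was seen depends on depth, and cells were therefore thinned to 2000 UMIs each. Cells below this depth were left out, which kept 403 of 457 macrophages and 1640 of 1662 monocytes. Of the macrophages left out, 28 were of the short isotype arm. At this depth Msr1 was seen in 29.8% of 403 macrophages (exact Clopper-Pearson 95% interval 25.4% to 34.5%) and 32.4% of 1640 monocytes (30.1% to 34.7%). Mrc1 was seen in 16.6% of macrophages (13.1% to 20.6%) and 0.915% of monocytes, and Mertk in 8.68% (6.12% to 11.9%) and 0.427%. Before thinning, Mrc1 was seen in 37.0% of macrophages and Mertk in 23.2%. T cells, which should lack these genes, had 0 Mrc1, Msr1 and Cd36 UMIs in 476 cells at median depths of 5570.5 and 4294.5 UMIs, which allows shares of up to 0.630%. Stab1 and Mertk had 1 UMI each there. Axl was seen in 2.03% of 443 thinned T cells (0.933% to 3.82%) and in 2.31% of 130 mature DC (0.478% to 6.60%), with overlapping intervals. The source of the Axl UMIs in T cells was not tested.

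**Figure D3:**
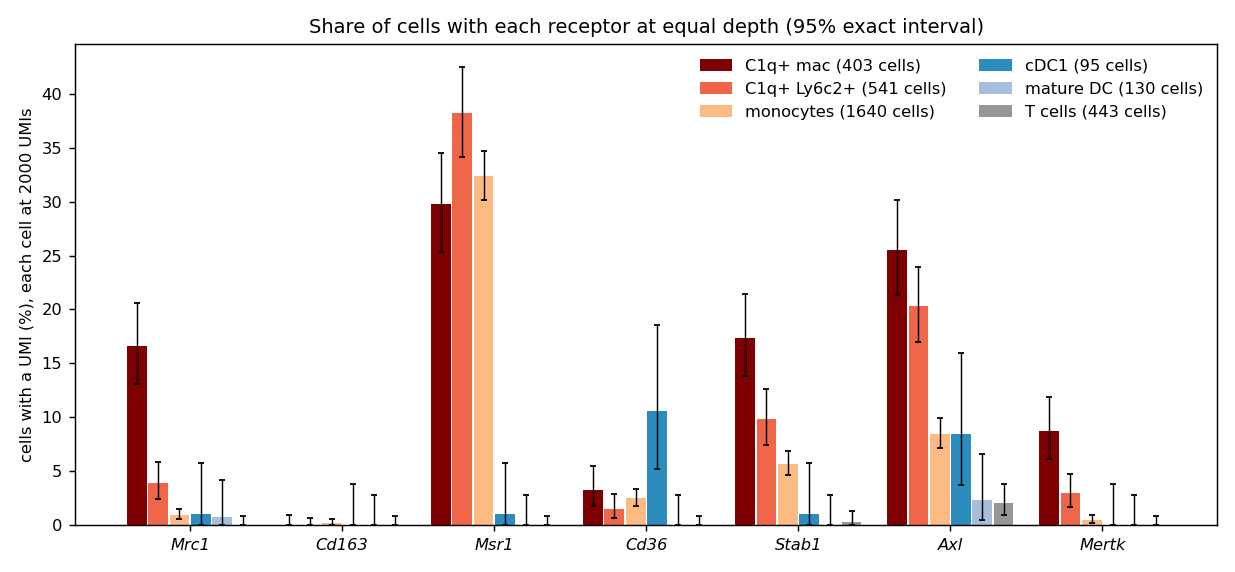
Share of cells with at least 1 UMI of each receptor (vertical axis, %), by gate, pooled over the labelled arms of both cohorts, with exact 95% intervals of counting error. Cells of fewer than 2000 UMIs were left out and every other cell was thinned to 2000 UMIs. Msr1 is seen in 29.8% of macrophages and 32.4% of monocytes, Mrc1 in 16.6% and 0.915%, and Cd36 is highest in the cDC1 gate at 10.5%.

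Macrophages seldom showed many of the receptors at once at this depth. Of the 403 thinned macrophages 33.5% showed none, 39.7% showed 1, 19.9% showed 2 and 6.95% showed 3 or more, with a maximum of 4. Among monocytes 57.6% showed none, and among mature DC and T cells 96.9% and 97.7%. Msr1 was seen in 40.3% of the 67 macrophages with Mrc1 and in 27.7% of the 336 without, and in the long cohort alone in 18 of 53 and 47 of 206. For Stab1 the pooled shares were 23.9% and 16.1%, and in the long cohort alone it was seen in 15 of 53 and 35 of 206. The short cohort had the other direction, with Mrc1 in 1 of 20 macrophages with Stab1 and in 13 of 124 without. For Axl the shares were 26.9% and 25.3% pooled, and 24.5% and 27.2% in the long cohort. These counts are a description, since cells of 1 library are not replicates.

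Cells that met both the macrophage and the monocyte gate, with Lyz2, C1qb and Ly6c2, were set apart from both and numbered 546. Their mean over arms was 26.5 CPM for Mrc1, 15.9 for Mertk and 58.2 for Stab1, which lay between monocytes and macrophages. In 5 of 6 arms for Mrc1 and for Stab1, and in 4 of 6 for Mertk, these cells ranked below macrophages and above monocytes of the same arm. Axl (141 CPM) had the same mean level as in macrophages and was above monocytes in 6 of 6 arms, and Msr1 (265 CPM) was above monocytes in 4 of 6. Doublets of a macrophage and a monocyte of 1 arm would also fall among these cells, and their part in these levels was not tested.

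The share of a receptor's UMIs that each gate held shows how much of its RNA these cells accounted for. Macrophages were 9.54% of the cells and held 61.8% of 804 Mrc1 UMIs and 52.0% of 406 Mertk UMIs. They held 24.1% of 2750 Axl, 27.6% of 1300 Stab1 and 14.2% of 5824 Msr1 UMIs, and monocytes, 34.7% of the cells, held 26.0%, 34.2% and 50.4% of these. The cells with both C1qb and Ly6c2, which were set apart from both gates, were 11.4% of the cells. They held 29.4% of the Axl, 23.5% of the Stab1, 24.9% of the Msr1, 20.9% of the Mrc1 and 25.1% of the Mertk UMIs. The shares of macrophages and monocytes leaned on the anti-MIF arm of the long cohort. Without it, an alternative chosen after seeing the data, macrophages were 6.21% of the cells and held 43.8% of 379 Mrc1, 29.7% of 195 Mertk, 15.4% of 1643 Axl, 12.7% of 856 Stab1 and 8.45% of 4639 Msr1 UMIs. Of 595 Cd36 UMIs 39.2% lay in cells that met none of these gates nor those of T cells, NK cells, plasmacytoid DC and neutrophils, and such cells were 23.1% of all. This share leaned on the short cohort, in which such cells held 197 Cd36 UMIs, against 36 in the long cohort. Without the short anti–PD-1 arm 362 Cd36 UMIs remained over all cells. Fewer cells of a type and less RNA per cell cannot be told apart in such shares.

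Across the 22 sums of arm and gate Cd36 did not follow the other receptors. Spearman correlations of log2(CPM + 1) were 0.85 between Stab1 and Mertk, 0.82 between Axl and Mertk, 0.79 between Mrc1 and Stab1, 0.77 between Mrc1 and Mertk, 0.74 between Mrc1 and Axl and 0.62 between Stab1 and Axl. Cd36 correlated with the others at -0.03 to 0.13, while Msr1 correlated with Stab1 at 0.72 and with Axl at 0.28. Among 7054 genes the closest to Mrc1 were Ccl12 (0.93), Pla2g15 (0.91) and C1qc (0.91), to Stab1 Ccl7 (0.95), Tspan32 (0.94) and Cd84 (0.94), and to Mertk Sash1 (0.92), Tmem171 (0.92) and Pf4 (0.92). Axl was closest to Siglec1 (0.85), Parp1 (0.84) and Mertk (0.82), Msr1 to Maml3 (0.92), Lrmda (0.91) and Pid1 (0.91), and Cd36 to Mbnl1 (0.91), Adgrg5 (0.82) and Ciita (0.82). Sums of the same gate and library share depth and cell type, so these values describe likeness across the gates and carry no test.

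Treatment was then compared within macrophages and within monocytes, with cohort, anti–PD-1 and anti-MIF as additive terms. None of the receptors was called for any term in either gate. In macrophages 0% of 4037 genes were called by edgeR for anti-MIF and for anti–PD-1 (152 and 146 genes at an unadjusted p under 0.05, and 0 and 3 by DESeq2), with 6 samples in the fit. In monocytes 0.0120% of 8346 genes were called for anti-MIF and 0.0120% for anti–PD-1, and 5 of the 7 receptors passed the filter. In a simulation at this size 200 genes were altered, of which 117 passed the filter in macrophages and 192 in monocytes. Among these it recovered 48.4% of changes of 2 log2 units in macrophages and 91.7% in monocytes, and 1.89% and 17.7% of changes of 1 log2 unit. Altered genes that failed the filter were not counted. The counts were drawn with the same spread for every gene and not with the spread of these data.

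The arms of the macrophages were read as values. In the long cohort Mrc1 was 114 CPM after anti–PD-1, 124 after anti-MIF and 70.4 after both antibodies, and 122, 116 and 67.1 CPM in the short cohort with isotype, anti–PD-1 and anti-MIF. Of the 4 pairs that differ by anti-MIF within a cohort, 2 were left out, since the long isotype arm held 7 macrophages and the short anti–PD-1/anti-MIF arm 9. On the few UMIs of these sums (Mrc1 1 of 32978 and 5 of 41237) Mrc1 and Stab1 were the higher with anti-MIF there. In both pairs that remained Mrc1 was the lower with anti-MIF, and so was Stab1 (106 against 51.2 and 61.6 against 52.7 CPM). Macrophage markers were lower with anti-MIF in 1 of these pairs and not in the other, at 15751 CPM with anti–PD-1 and 8288 with anti–PD-1/anti-MIF in the long cohort, and at 7804 with isotype and 8295 with anti-MIF in the short cohort. Monocyte markers in the same macrophages were higher with anti-MIF in both pairs, at 220 against 448 CPM in the long cohort and 513 against 1002 CPM in the short cohort. The part of either marker list in the Mrc1 and Stab1 levels was not tested.

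Axl in monocytes was higher with anti-MIF in all 4 pairs and did not pass the threshold over all genes. In the long cohort it was 13.1 CPM with isotype against 128 under anti-MIF, and 46.9 under anti–PD-1 against 70.5 under both antibodies. In the short cohort the same pairs were 38.9 and 63.5, and 41.5 and 72.8 CPM. The 4 arms with anti-MIF lay between 63.5 and 128 CPM and the 4 without between 13.1 and 46.9, without overlap. The share of all genes that agree in 4 of 4 pairs or separate in this way was not counted. Counts of pairs in monocytes, here and below, are therefore a description and no evidence of a treatment effect. The fitted log2 fold change of Axl was 1.08 (SE 0.30, unadjusted p = 0.00462, adjusted p = 0.674, edgeR), so the value was not called. Without the filter on low counts it was called (adjusted p = 4.16e-06, edgeR), in a fit that called 112 genes in place of 1. The monocytes of the long anti–PD-1/anti-MIF arm held neutrophil markers (S100a8, S100a9, Csf3r, Retnlg and Cxcr2) at 13722 CPM, against 94.6 to 1664 in the other arms, and neutrophils outside the gate had 0 Axl UMIs in 63 cells, which allows up to 21.5 CPM. Macrophage markers in monocytes were higher with anti-MIF in 3 of the 4 pairs, at 2546 against 2968 and 2014 against 2353 CPM in the long cohort and 1834 against 1903 in the short cohort, and in the fourth they were 1957 against 1935. The long anti-MIF arm, with the highest Axl, had the most macrophage markers (2968 CPM) and the least monocyte markers (3811 CPM, against 5578 to 6674 in the other arms). The part of neutrophil or macrophage RNA in the Axl levels was not tested.

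Cd36 in monocytes was lower with anti-MIF in all 4 pairs. With and without anti-MIF it was 3.80 and 5.63, 1.44 and 36.5, 8.92 and 8.98, and 5.72 and 21.5 CPM, so the arm with anti-MIF was the lower in each pair, by a wide margin only where anti–PD-1 was given in both. The highest values belonged to anti–PD-1 alone, at 36.5 CPM (21 UMIs) in the long and 21.5 CPM (88 UMIs) in the short cohort. The log2 fold change with anti-MIF was -1.46 (SE 0.53, unadjusted p = 0.0191, adjusted p = 0.767, edgeR), and without the filter on low counts it was called (adjusted p = 0.00865). Mrc1 in monocytes was higher with anti–PD-1 in 4 of 4 pairs, on 2 to 31 UMIs a sample. It was 3.75 and 13.9, and 5.32 and 17.3 CPM without and with anti–PD-1 in the long cohort, and 3.85 and 7.56, and 4.46 and 7.36 CPM in the short cohort (log2 fold change 1.24, SE 0.37, unadjusted p = 0.00746, adjusted p = 1.00, edgeR).

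**Figure D4:**
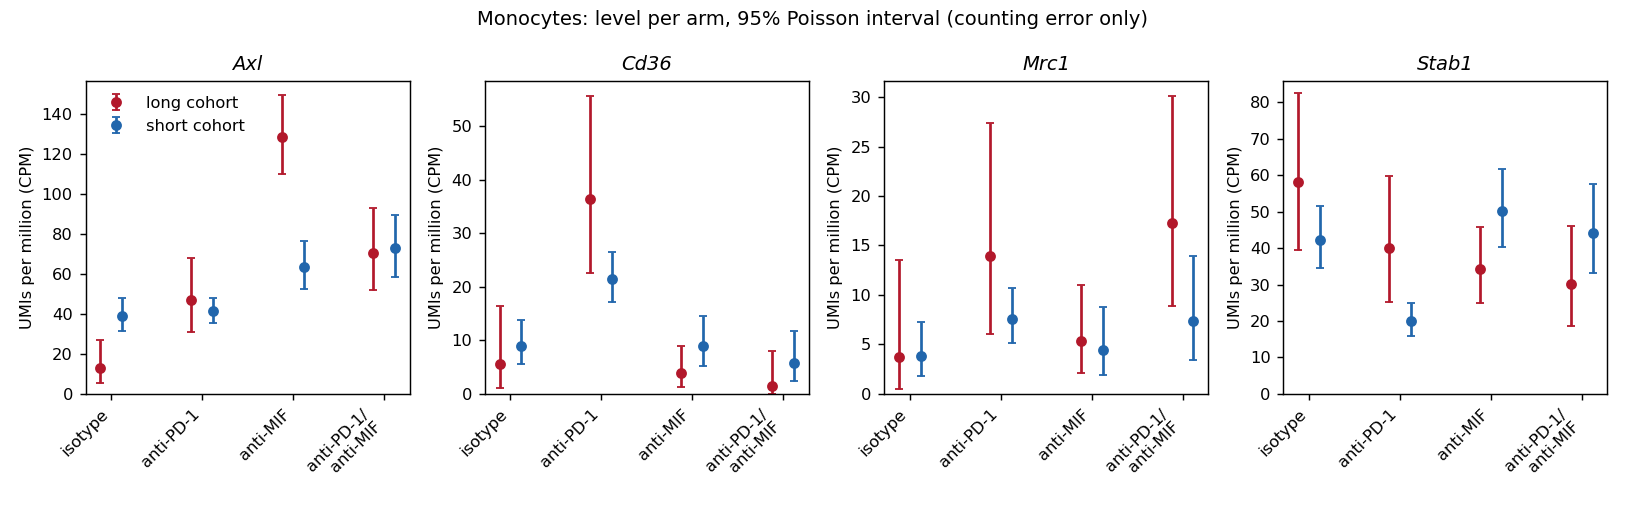
Level of Axl, Cd36, Mrc1 and Stab1 in monocytes (vertical axis, CPM) by treatment arm (horizontal axis) in the long (red) and short (blue) cohort, 1 sample a point with an exact 95% Poisson interval of counting error. Axl is lowest in both cohorts with isotype (13.1 and 38.9) and Cd36 is highest in both with anti–PD-1 (36.5 and 21.5), and none of these differences was called over all genes.

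Msr1 and Stab1 showed no common direction with anti-MIF in monocytes. Msr1 stayed between 187 and 280 CPM in all 8 samples and was higher with anti-MIF in 1 of 4 pairs. Stab1 was lower with anti-MIF in both pairs of the long cohort (58.2 and 34.2, 39.9 and 30.2 CPM without and with) and higher in both pairs of the short cohort (42.3 and 50.2, 20.0 and 44.1). With anti–PD-1 it was lower in 4 of 4 pairs and was not called (adjusted p = 1.00, edgeR). Mertk rested on 0 to 11 UMIs a sample and failed the filter, so it was not tested. It was higher with anti-MIF in 4 of 4 pairs (1.88 and 6.08, 0 and 8.63 CPM without and with in the long cohort, 3.85 and 5.57, 2.68 and 4.09 CPM in the short), where the 0 allows up to 5.21 CPM.

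Between the cohorts no receptor was called, in macrophages (0% of 4037 genes called by edgeR, 487 at an unadjusted p under 0.05, and 15 by DESeq2) or in monocytes (4.15% of 8346 genes called). The difference of the anti-MIF effect between the cohorts, tested as an interaction, was not called for any receptor either, with 0.142% of 4942 genes called in macrophages and 0% of 8346 in monocytes by edgeR (544 at an unadjusted p under 0.05, and 2 by DESeq2).

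Trem2, a receptor for lipids and dead cells that marks lipid-associated macrophages, was used to split the macrophages after thinning. In the 3 arms with enough cells on both sides, 0.423% of 1420 genes were called, and of the receptors only Mrc1, Axl and Msr1 passed the filter. None was called, with log2 fold changes of 0.53 for Mrc1 (adjusted p = 0.826), 0.05 for Axl and 0.15 for Msr1 (edgeR). Without thinning, where cells with Trem2 are also the deeper ones, Mrc1 was higher in Trem2-positive macrophages by 1.76 (adjusted p = 0.0339, edgeR).

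Other genes of uptake were read from lists in the contrast of macrophages and monocytes, in which 20.3% of all genes were called, 8.68% as higher. Of the other scavenger receptors and lectins (19 genes, 13 tested) 3 were higher in macrophages and 3 lower. Mgl2, a galactose-type lectin, rose by 2.96 (SE 0.49, adjusted p = 8.76e-05), Cxcl16, a scavenger receptor and chemokine, by 1.90 and Clec12a by 0.96, while Ly75, Olr1 (the receptor for oxidized lipoprotein) and Scarb1 fell by 2.37, 1.72 and 0.92. Cd14, the most abundant of the list, was at -0.46 and not called (adjusted p = 0.354, edgeR). Receptors for dead cells (13 genes, 9 tested) were also split. Trem2 (1.94, adjusted p = 2.85e-07), the integrin chain Itgb5 (0.68) and P2ry6, a nucleotide receptor (0.64), were higher, and the phosphatidylserine receptors Cd300a (-1.44), Cd300lf (-0.78) and Havcr2 (-0.89) were lower (edgeR). Of the bridging proteins and opsonins (11 genes, 8 tested) C1qa, C1qc and Edil3 were higher and Thbs1 (-2.42), C3 (-2.08) and Anxa1 (-0.91) lower, where C1qa and C1qc go with the C1qb that set the gate. Lgals3, the most abundant of this list, was at -0.50 and not called (adjusted p = 0.0630, edgeR).

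The lists for engulfment and for what follows it are read against the same 20.3%. Of the engulfment machinery (14 genes, 13 tested) 2 were called, too few to set apart from that share. None was higher, and Elmo2 (-0.58, adjusted p = 0.0473) and Dock2 (-0.56, 0.0100) were lower (edgeR), with Rac1, the most abundant, at -0.31 and not called. Among genes for digestion and lipid handling (19 genes, 18 tested) 4 were higher, led by the lysosomal membrane protein Cd63 (2.93), the lipid carrier Apoe (2.52) and the cholesterol exporter Abca1 (0.80), and 4 were lower, among them the lipid carrier Fabp5 (-1.15), the lipid droplet protein Plin2 (-0.79), Nr1h2 (-0.70) and Npc2 (-0.47). The signals that restrain uptake (8 genes, all tested) had 4 lower and 0 higher, with Siglecg (-3.40), Cd24a (-1.29) and Cd47, the signal against being eaten (-0.93), furthest down (adjusted p = 0.00473, 0.0282 and 0.000104, edgeR). Lilrb4a, the most abundant of them, was at -0.60 and not called (adjusted p = 0.123, edgeR). Regulators of macrophage identity (11 genes, all tested) had 4 lower and 0 higher, led by Klf2 (-1.68), Nr4a1 (-1.23) and Cebpb (-1.12). Among genes of tissue-resident macrophages (10 genes, 4 tested) Ccl8 (5.13), Pf4 (4.94) and Selenop (0.92) were higher and F13a1 lower (-2.95). Against the cDC1 gate, where 9.20% of all genes were higher and 8.33% lower, the same lists, in this order from scavenger receptors on, had 5, 5, 4, 2, 10, 3, 4 and 4 genes higher in macrophages and 3, 2, 0, 0, 0, 3, 1 and 0 lower. Medians of the lists against monocytes lay between -0.78 and 2.93 on the log2 scale, with -0.02 over all genes.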

How the data were processed

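Per the labels and the methods of the study, 5′ 10x libraries with hashtag antibodies were made from YUMMER1.7 tumors, 1 library per cohort. The authors deposited a filtered matrix of raw UMI counts per gene, hashtag and cell for each cohort. The submitters' processing notes name Cell Ranger 7.1.0, Seurat 5.1.0, R 4.3.2 and the build mm10, and the version of the gene annotation is not given in the sources used here. The matrices held 0 columns of other samples.

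Cells were assigned to arms from the hashtag counts with HTODemux (Seurat 5.3.0, quantile 0.99). Hashtag doublets and negatives were removed, and cells with 200 to 5000 genes and under 5% mitochondrial counts were kept. Doublets within an arm remained, and an alternative left out cells with a UMI of Cd3e, Cd3g, Cd79a or Siglech. Cells of a further hashtag, which the labels give to no arm, entered no comparison. Counts were summed per gate, arm and cohort, and sums of at least 10 cells (22 sums) were tested with edgeR 4.0.16 in R 4.3.3 by the quasi-likelihood test with Benjamini-Hochberg adjustment over all genes tested, at a threshold of 0.05. DESeq2 1.42.0 was an alternative. For shares, cells of fewer than 2000 UMIs were left out and the others were thinned to 2000 UMIs. Exact intervals are at 95% and a count of 0 allows 3 counts, and both cover counting error only. The other tools were Python 3.11.15, numpy 2.4.6, scipy 1.17.1, pandas 2.3.3 and matplotlib 3.10.9. Library totals are given with the samples above.

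The receptors and the gene lists were chosen with earlier results of these data known. Genes named from a list were the furthest up to 3 called in each direction and the most abundant one, and the genes most like a receptor were the 3 with the highest Spearman correlation. On simulated counts, drawn with the same spread for every gene, 185 of 200 altered genes passed the filter in the contrast of macrophages and monocytes. Among these it called 88.0% of genes altered by 2 log2 units and 29.0% of those altered by 1. Wrongly called were 6 of the 7984 genes tested.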

Additional observations from a re-analysis of the deposited data

Results flagged for a closer look

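Single samples stood far from the others in 6 of the 20 groups of receptor and gate examined. Chance gives about 1 in 20 for measured values, but that rate does not apply where all other samples are at 0, as in 4 of the 6. Msr1 in macrophages of the short anti–PD-1 arm was at 432 CPM (89 UMIs), above the other 5 samples. The other 5 cases lay in the cDC1 gate and rested on 1 to 3 UMIs. They were Mrc1 and Cd163 in the long anti-MIF arm (12.2 CPM each), Msr1 in the long isotype arm (20.9 CPM), and Stab1 and Mertk in the long anti–PD-1/anti-MIF arm (5.88 CPM each). All Cd163 UMIs of this gate lay in cells with Siglech or a lymphocyte gene.

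Stab1 in monocytes went in opposite directions with anti-MIF in the cohorts. The log2 differences within pairs of the long cohort were -0.75 and -0.39, and those of the short cohort 0.24 and 1.10. As an interaction the difference was -1.26 (SE 0.41, adjusted p = 0.712, edgeR) and was not called.

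Cells of a further hashtag, for anti–PD-1/MIF/DDT in the files and with no group in the labels, were above the isotype arm of their cohort in 3 of 21 values compared. Msr1 in macrophages of the short cohort was at 337 CPM (92 UMIs, 95% Poisson interval 272 to 414). Cd36 in monocytes of the short cohort was at 28.3 CPM (95 UMIs, 22.9 to 34.6), and Axl in monocytes of the long cohort at 62.6 CPM (83 UMIs, 49.9 to 77.6), against 13.1 CPM with isotype.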

How the results depend on the processing

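The number of receptors called in macrophages against monocytes was 4 with each arm left out in turn. Counts of receptors called moved as follows. Against mature DC, macrophages had 6 called, 5 to 6 with an arm left out and 3 in the short cohort alone, which had 1 mature DC sample. Against the cDC1 gate they had 6, 5 to 6 with an arm left out and 1 after thinning to 2000 UMIs. The cDC1 gate against mature DC had 1, 1 to 2 with an arm left out, 5 with cells counted in every gate they met, 2 after thinning, at a stricter HTODemux quantile, with MULTIseqDemux, without cells with other lineage genes, without the filter on low counts and in the long cohort alone, and 0 in the short cohort alone, where 1 sample stood against 1 of another arm, so that this says nothing about stability. Monocytes against mature DC had 3, 2 to 4 with an arm left out, 6 with cells counted in every gate, and 5 with a gate at 2 UMIs, at the stricter quantile, with MULTIseqDemux or without the filter. For anti-MIF in monocytes 2 were called without the filter, and 1 in the Trem2 split without thinning. Msr1 in macrophages against monocytes turned to -0.034 with the gate at 2 UMIs, -0.044 at the stricter quantile, -0.012 with MULTIseqDemux, -0.036 without the filter and -0.030 in the long cohort alone, and ran from -0.13 to 0.19 with an arm left out. In the short cohort alone Axl turned to -1.79 in the cDC1 gate and to -0.13 in monocytes, both against mature DC, on 1 mature DC sample of 21 cells and 1 cDC1 sample of 13 cells with 2 Axl UMIs. The cause of these shifts was not tested. Genes called in macrophages against monocytes numbered 1775, and 969 after thinning, 600 in the long and 1143 in the short cohort alone, and 1107 to 1869 with an arm left out. Without the long anti-MIF arm, which gave the lowest count in each, genes called fell from 3540 to 2080 in macrophages and from 3465 to 2169 in monocytes, both against mature DC, from 2595 to 1338 in the cDC1 gate against mature DC, and to 1107 in macrophages against monocytes. Without the short isotype arm the last was 1124. In macrophages 0 genes were called for each treatment and for cohort, and with an arm left out 0 to 7 for anti-MIF, 0 to 21 for anti–PD-1 and 0 to 100 between cohorts, with the most without the short anti–PD-1, the long anti-MIF and the short anti-MIF arm. For anti-MIF in monocytes 1 gene was called, and 112 without the filter. Between cohorts in monocytes 346 were called, 26 after thinning and 7 to 405 with an arm left out. Of 600 recomputed fold changes of receptors 542 kept direction and side of the threshold, 20 lost the call, 29 gained it and 9 reversed. Of 847 fold changes of other listed genes 97 lost the call and 15 gained it. Of 252 counts of genes called 97 moved by over 1.5 times, and 19 of 28 shares of cells and 15 of 224 mean levels moved. Without the arm as a block, the calls of Cd36 in macrophages (adjusted p = 0.0535) and of Axl in monocytes (0.0651), both against mature DC, were lost (edgeR). The labels carry no replicate numbers, so no fit used them as a block. Few macrophages (7 to 9 cells in the smallest arms) and 134 mature DC limit what can be seen of rare transcripts.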

Other observations

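Cells that met none of the gates, nor those of T cells, NK cells, plasmacytoid DC and neutrophils, numbered 1107. Pooled over the cohorts they held more of the Cd36 UMIs than any gate, and 86 of them carried a Cd36 UMI. Their Cd36 UMIs were 197 in the short cohort and 36 in the long cohort, where macrophages and the cDC1 gate each held more. The following genes were chosen after their values were seen and carry no test. In the 86 cells Ace was at 425 CPM, Treml4 at 123 and Adgre4 at 267 CPM, against 83.5, 21.4 and 43.0 CPM in the 1021 cells without Cd36. Ear2 (256 against 32.9 CPM), Cd300e (65.6 against 8.33) and Pparg (129 against 17.8) differed in the same direction, and Ace did so in each cohort (397 against 53.7 CPM in the long and 438 against 103 in the short). The median depth was 4346.5 UMIs in cells with Cd36 and 3012 in cells without, and its part in these levels was not tested.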
